A study of Mus musculus and synthetic RNA with 74 samples.

Results

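The replication-dependent histone genes of the mouse make the H1, H2A, H2B, H3 and H4 proteins that package newly copied DNA. They sit in clusters of many near-identical copies, and here they were taken as all genes whose symbol begins with Hist1h, Hist2h, Hist3h or Hist4h. By that rule 68 of the 21890 genes in the 2 embryo gene tables were members, 67 of them listed at embryonic day 2.5 (E2.5, of 20330 genes) and all 68 at E3.5 (of 21199 genes). Hist2h2aa2 was the member listed at E3.5 alone. The members comprised 6 H1, 19 H2A, 19 H2B, 11 H3 and 13 H4 genes, with 55 in the Hist1 cluster on chromosome 13, 9 in Hist2 on chromosome 3, 3 in Hist3 on chromosome 11 and 1 in Hist4 on chromosome 6. Both Hist1h2al and Hist3h2bb-ps are annotated as processed pseudogenes.

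The study sequenced single preimplantation embryos to follow the loss of METTL16, an enzyme that places m6A on structured RNA. The embryos came from superovulated Mettl16+/- females mated to Mettl16+/- males. All of them belonged to a mouse line in which a triple-stop cassette was placed in exon 3 of Mettl16 in B6D2F1/J zygotes. The E2.5 morulae numbered 5 wild-type (WT), 14 heterozygous (HET) and 12 homozygous knockout (KO) embryos, and the E3.5 blastocysts 18 WT, 9 HET and 12 KO embryos. Genotype had been read from the Mettl16 sequence in each library itself, and litters, sexes and collection days are not given in the labels.

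Each value below is the authors' mean over all embryos of a stage, WT, HET and KO together, in normalized counts. The tables used here hold no value per embryo, so the values carry no SD, no test was possible, and KO was not compared with WT. Mettl16 itself had a pooled mean of 778 normalized counts at E2.5 and 669 at E3.5, a mean over genotypes that checks no label. The 2 stages were normalized separately and hold different mixes of genotypes, so stage and genotype mix cannot be told apart. Stages are therefore set side by side only as shares of each table's total, in parts per 1000000 (ppm), with totals of 23557112 normalized counts at E2.5 and 27145016 at E3.5. The sequencing depth of each embryo was not analysed here.

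All 6 trophectoderm markers and all 7 markers of the inner cell mass and its derivatives reached 10 normalized counts at both stages. Krt8, a keratin of the trophectoderm, had a share of 27.6 ppm at E2.5 and 1136 ppm at E3.5. Of the 6 trophectoderm markers 5 had a larger share at E3.5, with Krt8 the largest in log2 ratio and Tead4 lower, at 250 ppm and 85.7 ppm. Of the 7 markers of the inner cell mass 4 had a larger share at E3.5, and Pou5f1, Gata4 and Gata6 a smaller one, with log2 ratios of -1.56, -2.53 and -0.16. Of all 11774 genes with at least 10 normalized counts at both stages, 60.4% had a larger share at E3.5. Oocyte transcripts were present too, with all 5 markers at 10 or more at E2.5 and a summed share of 90.8 ppm, against 5.49 ppm at E3.5. Of the markers of other cells, 1 of 4 for cumulus cells (Amhr2) and 1 of 3 for blood (Hba-a1) reached 10 at both stages, with summed shares of 42.5 and 2.13 ppm at E2.5. Has2, a defining cumulus marker, was at 0.917 and 0.63 normalized counts.

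Replication-dependent histone mRNAs are made as cells enter S phase, when the embryo's cells copy their DNA. Most of them lack both introns and the poly(A) tail of other mRNAs, and end instead in a short stem-loop that is bound by the stem-loop binding protein SLBP and cut by a dedicated processing complex that contains the U7 small nuclear RNA. When replication stops the stem-loop serves the rapid decay of the message. Replacement histones such as H3.3 or H2A.Z come from single genes outside the clusters, with poly(A) tails, and are made through the whole cell cycle. The embryo libraries were made from polyadenylated RNA by Smart-seq2, which primes on a poly(A) tail, so the levels below are of histone RNA that was copied into cDNA in this way, and the total of histone mRNA was not measured.

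The stem-loop was searched for as GG, 3 pyrimidines, T, 4 bases other than G, A, 3 purines and CC, with no test of pairing, on the coding strand within 300 bases after the stop codon. It was found in 61 of the 66 members with a coding sequence, against 85 of 21938 protein-coding genes in all (0.387%). The 61 matches lay 21 to 58 bases after the stop codon, with a median of 31. They took 8 forms, and the commonest stood in 37 members. The sequences of the leading members of each type are shown to let the stem-loops be compared, read from the RefSeq mm10 (GRCm38) genome on the strand of the gene, with the stem-loop in capitals and 5 bases on each side.
Hist1h1e (H1), chr13:23621777-23621802, minus strand: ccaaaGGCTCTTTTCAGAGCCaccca
Hist1h1b (H1), chr13:21779832-21779857, minus strand: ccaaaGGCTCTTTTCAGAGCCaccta
Hist1h2ae (H2A), chr13:23570663-23570688, minus strand: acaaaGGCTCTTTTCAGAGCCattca
Hist1h2ao (H2A), chr13:21810893-21810918, plus strand: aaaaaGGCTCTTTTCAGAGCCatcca
Hist2h2ac (H2A), chr3:96220413-96220438, minus strand: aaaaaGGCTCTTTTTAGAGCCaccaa
Hist1h2bc (H2B), chr13:23684642-23684667, plus strand: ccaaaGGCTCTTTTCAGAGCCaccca
Hist1h3c (H3), chr13:23745042-23745067, minus strand: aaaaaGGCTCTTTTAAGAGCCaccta
Hist1h4d (H4), chr13:23581945-23581970, plus strand: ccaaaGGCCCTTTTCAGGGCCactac
Hist1h4i (H4), chr13:22040961-22040986, minus strand: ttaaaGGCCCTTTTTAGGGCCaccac
A run of adenines precedes the stem in all 9, and the stem of both H4 genes differs in letters from that of the others. The 5 coding members with no match were Hist1h2an, Hist1h2bp, Hist1h2bq, Hist1h2br and Hist2h2be, which says only that these letters are not in the window searched. Outside the members 24 genes held a match, 6 of them at the members' distance from the stop codon, including H2afx and Hist2h3c1, a cluster gene that the gene tables do not list.

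A poly(A) signal (AATAAA or ATTAAA, on the coding strand) was found in the last 50 bases of an annotated transcript in 16 of the 66 coding members (24.2%), against 17703 of 21938 protein-coding genes (80.7%). The 16 comprised 2 H1, 2 H2A, 6 H2B and 6 H4 genes, and no H3 gene. A stem-loop with no such signal was the arrangement of 49 members. The members without the signal had a median of 19.9 normalized counts per kb of exon at E2.5 and 66.4 at E3.5. The 16 with it had medians of 5.12 and 13.1. Both sets ranged widely: at E2.5 from 0.876 to 1609 without the signal and from 0.0664 to 1239 with it, so they overlapped over most of their range. The signal was searched at the ends of GENCODE transcripts, whereas the levels count reads on RefSeq exons, which can be shorter. Hist4h4, which has the signal, has a transcript of 2863 bases and an exon of 439. Reads beyond such an exon are not in these levels.

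Taken over all types, 38 members reached 10 normalized counts at E2.5 and 55 at E3.5, where 62.2% and 62.7% of all listed genes did. By type, 5 of 6 H1, 16 of 19 H2A, 6 of 19 H2B, 9 of 11 H3 and 2 of 13 H4 genes reached 10 at E2.5. At E3.5 the same count was 6 of 6, 16 of 19, 15 of 19, 11 of 11 and 7 of 13. The H2B and H4 genes accounted for most of the difference between the stages. In all, 18 members were under 10 at E2.5 and at or above it at E3.5, and 1 member (Hist1h2aa, an H2A gene known from the testis) was the reverse, while 12 were under 10 at both.

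The members together made up 1298 ppm of the E2.5 total and 1358 ppm of the E3.5 total by the Salmon gene values. A single gene held most of this. Hist1h2ao, an H2A gene, had 24973 normalized counts at E2.5, 81.7% of the members' sum, and 19427 at E3.5, 52.7% of it. It ranked 149 among all genes at E2.5 and 212 at E3.5. Without it the members' share was 238 ppm at E2.5 and 642 ppm at E3.5.

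The reads counted on its exon did not show this level. The authors also counted reads on RefSeq exons with featureCounts, and there the exon of Hist1h2ao (chr13:21810367-21810918, plus strand) had 26.2 normalized counts at E2.5 and 168 at E3.5. The gene value was thus 954 times the exon value at E2.5 and 115 times at E3.5, where the median gene had a ratio of 0.579 and 0.855 and 95% of genes lay under 3.95 and 6.7. Hist1h2ap, the neighbouring H2A gene, had gene values of 296 and 5529 and exon values of 55.0 and 340. As shares of the table totals, the gene value of Hist1h2ao was 1060 ppm at E2.5 and 716 ppm at E3.5, and that of Hist1h2ap 12.6 ppm and 204 ppm.

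The sequences of these genes are shared. Each exon was divided into all windows of 80 bases, the greatest read length of the study. Each window was looked up on both strands of the whole genome. The reads were sequenced in pairs, whereas a window stands for a single read, so the shares below do not use the other read of a pair. Every window of Hist1h2ao and of Hist1h2ap occurred at more than 1 place, 87.1% of those of Hist1h2ao lay in Hist1h2ap, and all of those of Hist1h2ap lay in Hist1h2ao. Salmon divides a read among the transcripts it matches. How the exon counts treated such reads is not given in the sources used here, and its part in the ratio was not tested.

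Over all members the median share of windows found elsewhere was 45.3%. It was 6.76% for H1, 40.9% for H4, 46.6% for H2B, 55.3% for H2A and 60.0% for H3. In all, 8 genes had no window elsewhere, and 6 had every window elsewhere, with single windows at up to 16 places. At E2.5, the 19 members that reached 10 and had under 50% of their windows elsewhere had a median gene-to-exon ratio of 1.09, and the 19 with 50% or more had 2.67. At E3.5 the medians were 1.29 (29 members) and 2.42 (26 members). Among members that reached 10, those with 50% or more thus had the higher median ratio at both stages. They held 85.3% and 74.7% of the members' summed gene values. The minimum was set on the gene value, the numerator of the ratio, so it can shape this difference. It kept 38 of the 67 members listed at E2.5 and 55 of the 68 at E3.5. Among those left out at E3.5 were Hist1h4n (ratio 0.123) and Hist2h2aa2 (0.213), both mostly shared, and Hist1h2aa (3.03), with no window elsewhere. Among those left out at E2.5 were Hist2h2be, with no window elsewhere, at 20.1, and the mostly shared Hist1h4m at 3.51 and Hist1h4n at 0.711.

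**Figure D1:**
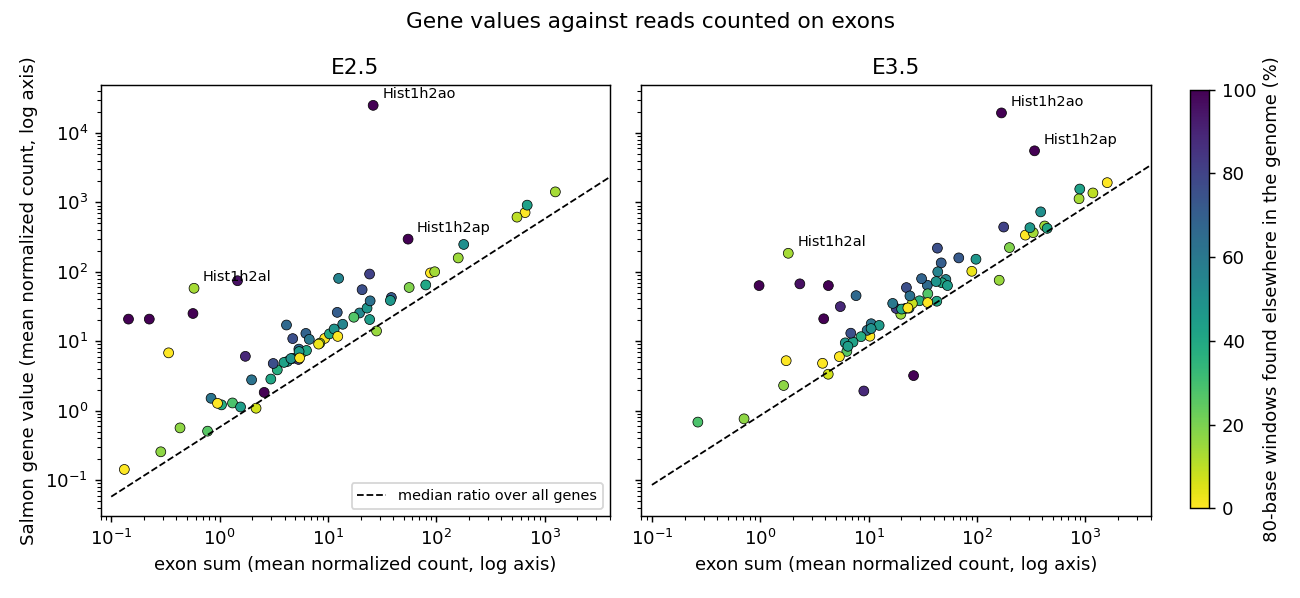
Gene value by Salmon (vertical, mean normalized count, log axis) against the exon sum by featureCounts (horizontal, log axis) for each member at E2.5 (left) and E3.5 (right), coloured by the percentage of 80-base windows found elsewhere in the genome, with the median ratio over all genes as a dashed line. Hist1h2ao lies farthest above the line at both stages, at 24973 against 26.2 at E2.5.

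The ratio was extreme for a few other members. Hist1h2bq and Hist1h2br, H2B genes in which every window of either occurs in the other, had the same gene value of 20.9 at E2.5 and of 63.4 at E3.5, with morula exon sums of 0.225 and 0.144 and blastocyst exon sums of 0.976 and 4.25. Their values are uncertain, since an even division between identical copies cannot be told apart from equal levels. The pseudogene Hist1h2al had gene values of 58.0 and 185 and exon sums of 0.581 and 1.81. Its RefSeq exon (chr13:51200084-51203066, minus strand) spans 2983 bases, and 6.61% of its windows lie in Hist2h2aa1. Among the members that reached 10 at the stage in question, Hist1h2ak (H2A) had the smallest ratio at both stages, 0.50 at E2.5 and 0.472 at E3.5. Hist1h4i had 0.809 and 0.950, Hist1h3e had 0.846 at E2.5 and Hist1h4b had 0.886 at E3.5.

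The H1 genes make the linker histone, their windows were the least shared of the 5 types, and their 2 values were close, with ratios from 0.994 to 1.29 among those that reached 10. Hist1h1e had 1418 normalized counts by gene value and 1258 by exon sum in the morulae, and 1129 and 876 in the blastocysts. Hist1h1b had 713 and 661 in the morulae and 1924 and 1595 in the blastocysts. The order of these genes was thus reversed between the stages on both measures, with Hist1h1e first at E2.5 and Hist1h1b first at E3.5. The difference stood within each table, where both genes were scaled alike.

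The other H1 genes were lower. Hist1h1c had gene values of 159 and 457, Hist1h1d 100.3 and 367, and Hist1h1a 96.5 and 338. Each had a larger share of the total at E3.5, with log2 ratios of shares of 1.32, 1.67 and 1.60. Hist1h1t, the testis-type linker histone, was at 0.143 at E2.5 and 11.8 at E3.5. By length, Hist1h1b had 960 and Hist1h1e 734 normalized counts per kb of longest annotated transcript at E2.5, at the 92.1 and 90.4 percentile of all genes. Per kb of exon counted reads, Hist1h1e stood first with 1609, since its annotated transcript is 1930 bases long and its RefSeq exon 782. The gene values per kb of RefSeq exon were also in this order, at 1813 for Hist1h1e and 898 for Hist1h1b.

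Outside Hist1h2ao and Hist1h2ap, the H2A genes were led by Hist1h2ae and Hist1h2ab. Hist1h2ae had gene values of 913 and 1557 and exon sums of 691 and 890. It held 58.3% of the H2A exon sum at E2.5 and 33.4% at E3.5. Hist1h2ab, with 50.7% of its windows elsewhere, had 248 and 731 by gene value and 179 and 388 by exon sum. Per kb of annotated transcript Hist1h2ae stood at 1297 and 2211, the 93.8 and 95.5 percentile of all genes, and Hist1h2ao at 52028 and 40474.

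The lowest H2A gene by gene value at E2.5 was Hist2h2ab, at 1.09. Hist1h2aa, known from the testis, had a gene value of 11.0 at E2.5 and 5.25 at E3.5, with exon sums of 9.34 and 1.73. None of its windows occurred elsewhere, and it differed from most members in having the lower share at E3.5. The other testis-type gene beside it, Hist1h2ba, was at 1.29 and 0.686 normalized counts, both under the minimum of 10.

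The H2B genes were low at E2.5, with gene values from 0.256 to 38.7 and a median of 6.82, and higher at E3.5, with values from 0.686 to 432 and a median of 30.2. Hist1h2bc led at both stages, with 38.7 and 432 by gene value and 37.7 and 308 by exon sum. It held 32.9% of the H2B exon sum at E2.5 and 49.5% at E3.5. Hist1h2bj had 25.6 and 77.6, and Hist1h2bk had 12.99 and 79.7. The H2B genes together had a share of 7.81 ppm at E2.5 and 38.0 ppm at E3.5.

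The H3 genes were low, with gene values from 4.79 to 38.2 at E2.5 and from 13.1 to 152 at E3.5. The first H3 gene held 19.5% of the H3 gene values at E2.5 (Hist1h3i) and 24.9% at E3.5 (Hist1h3c), where the first H2B gene held 21.1% and 41.9%. Hist1h3i had 38.2 and 45.0, Hist1h3c 30.0 and 152, Hist1h3g 15.02 and 72.5, and Hist1h3h 4.79 and 59.3. As all of these encode closely similar proteins from closely similar sequences, with 47.6% to 76.0% of the windows of these 4 genes found elsewhere, the division among them is uncertain.

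In H4 a single gene led with a sequence mostly its own. Hist1h4d, with 10.03% of its windows elsewhere, had 614 and 1367 by gene value and 556 and 1176 by exon sum, and held 82.7% of the H4 exon sum at E2.5 and 66.5% at E3.5. Hist1h4i followed with gene values of 64.7 and 423 and exon sums of 80.0 and 445. Each of the other 11 H4 genes was under 8 normalized counts at E2.5, among them Hist1h4k at 5.64 and Hist1h4b at 2.86. Per kb of exon Hist1h4d was the highest member of any type at E3.5, at 3196, and second to Hist1h1e at E2.5, at 1512.

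**Figure D2:**
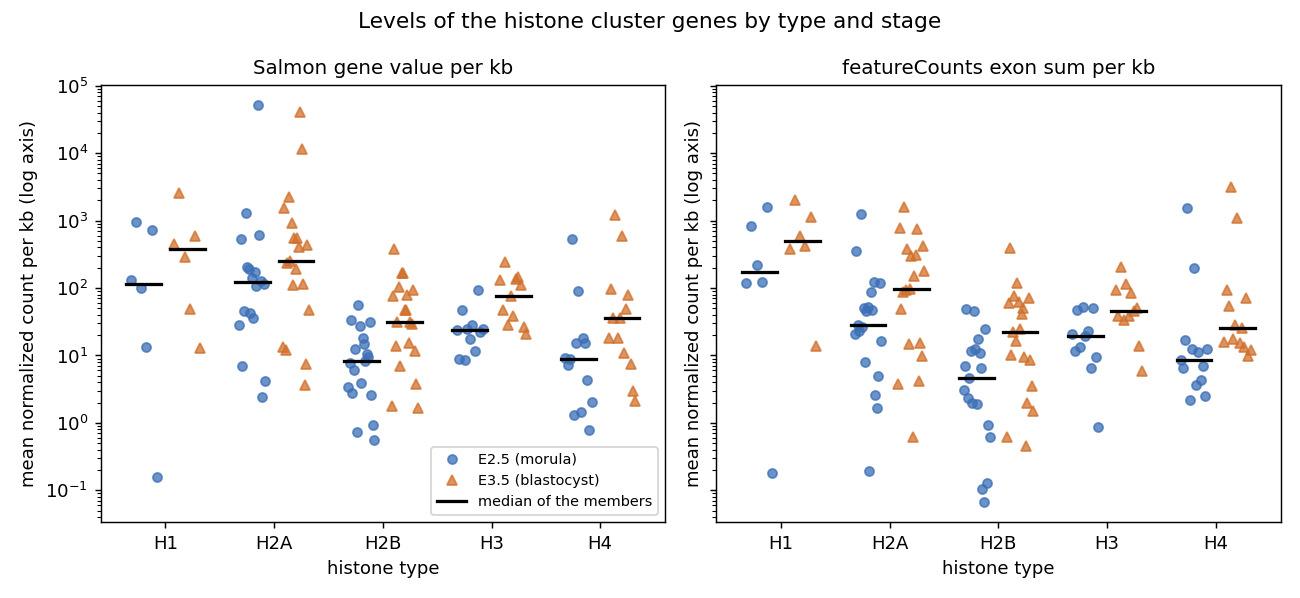
Mean normalized count per kb (log axis) of each member by histone type, from Salmon gene values per kb of longest annotated transcript (left) and exon sums per kb of RefSeq exon (right), with E2.5 as circles, E3.5 as triangles and medians as bars. On exon sums the H1 median was highest at both stages, 172 at E2.5 and 504 at E3.5, and the H2B median lowest, 4.59 and 22.5.

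The order of the types depended on which value was used. By summed gene values, H2A made up 88.3% of the members' total at E2.5 and 78.8% at E3.5, and H1 8.13% and 11.5%. By exon sums, H1 was first with 51.8% and 39.3%, followed by H2A with 27.1% and 29.8%, H4 with 15.4% and 19.8%, H2B with 2.62% and 6.97%, and H3 with 3.01% and 4.12%. Core histone proteins occupy the nucleosome in equal numbers, whereas the summed exon values per kb at E2.5 were 2252 for H2A, 201.3 for H2B, 255 for H3 and 1799 for H4. At E3.5 they were 5222, 979, 724 and 4659. On these sums H2A and H4 stood above H2B and H3 at both stages. At E2.5 Hist1h4d alone made up 1512 of the H4 sum and Hist1h2ae 1239 of the H2A sum. By the median per kb of exon H3 stood above H4 at both stages, at 19.2 against 8.65 and 45.8 against 25.8. The part that shared sequence plays in the sums was not tested.

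Divergent gene pairs, in which an H2A and an H2B gene start within 1000 bases of each other on opposite strands, allowed the types to be compared at the same locus. There were 13 such pairs, with starts 168 to 306 bases apart, the pair of Hist3h2a with the pseudogene Hist3h2bb-ps included. The H2A gene had the higher exon value per kb in 11 of the 13 at E2.5 and in 11 at E3.5. The median ratio of H2A over H2B was 13.2 at E2.5 and 6.25 at E3.5. By gene value per kb the counts were 12 and 11.

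The ratio was widest where the H2B gene was near 0, as in Hist1h2ap with Hist1h2br at E2.5 (122 against 0.0664) and Hist1h2ao with Hist1h2bq at E3.5 (305 against 0.449), genes in which every window occurs elsewhere. Among other pairs, Hist1h2ae had 1239 normalized counts per kb of exon at E2.5 where its partner Hist1h2bg had 11.6, and 1594 against 75.1 at E3.5. In the Hist2 cluster Hist2h2ac had 120 where Hist2h2be had 0.127 at E2.5, and 426 against 8.64 at E3.5. By gene value per kb of annotated transcript this pair was closer, at 114 against 2.60 at E2.5 and 430 against 11.5 at E3.5. The reversed pairs were Hist1h2ac with Hist1h2bc, at 28.1 against 48.7 at E2.5 and 48.6 against 398 at E3.5, and Hist1h2ah with Hist1h2bk, at 7.95 against 12.5 and 14.7 against 61.7. In 3 pairs both genes had under 50% of their windows elsewhere, and in all 3 the H2A gene was the higher at both stages. They were Hist1h2aa with Hist1h2ba, Hist2h2ac with Hist2h2be, and Hist3h2a with the pseudogene Hist3h2bb-ps. The H2B exon sums in that order were 1.32, 0.339 and 0.287 in the morulae, and 0.265, 23.0 and 0.709 in the blastocysts. Only Hist2h2be in the blastocysts thus reached 10, and the other comparisons rest on an H2B gene near 0. Hist1h2aa was itself low, with exon sums of 9.34 and 1.73.

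**Figure D3:**
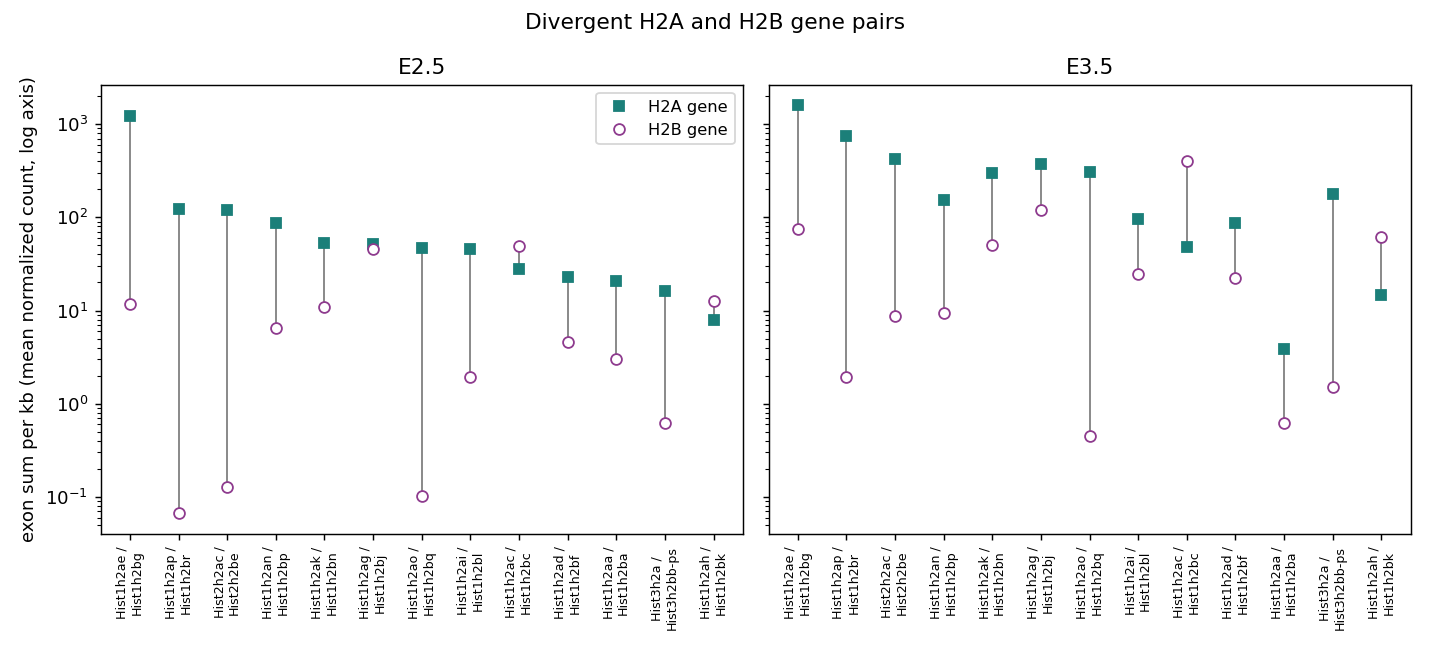
Exon sum per kb (mean normalized count, log axis) of the H2A gene (filled squares) and the H2B gene (open circles) of each of the 13 divergent pairs at E2.5 (left) and E3.5 (right), ordered by the H2A value at E2.5. The square lies above the circle in 11 pairs at each stage.

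The members' shares were mostly larger in the blastocyst table than in the morula table. The log2 ratio of the E3.5 share over the E2.5 share had a median of 1.41 over the 37 members with at least 10 normalized counts at both stages, where the median over all 11774 such genes was 0.34. A ratio of at least 1 (a share at least 2 times as large) was found for 26 of the 37 (70.3%), against 31.3% of all genes. A ratio of -1 or less was found for 0 of 37, against 16.6% of all genes. By type the median was 1.32 for 5 H1 genes, 1.47 for 15 H2A genes, 1.41 for 6 H2B genes, 1.42 for 9 H3 genes and 1.73 for 2 H4 genes.

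On exon sums the pattern was as large. Of the 28 members with an exon sum of at least 10 at both stages, 25 had a log2 ratio of at least 1, against 32.0% of all 11459 such genes, and 0 had a ratio of -1 or less, against 18.2%. The median was 1.83, with 0.31 over all genes. These are descriptions with no test, since each stage gave a single pooled value per gene. The summed share of all members differed little between stages by gene value (log2 ratio 0.07), where Hist1h2ao weighed most, and more by exon sum, with 106 ppm at E2.5 and 257 ppm at E3.5 (log2 ratio 1.28).

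The largest ratios among the 37 were those of Hist1h2ap (4.02), Hist1h2bc (3.28) and Hist1h4i (2.504). On exon sums they were 2.88, 3.28 and 2.72. The smallest were those of Hist1h2ao (-0.57), Hist1h1e (-0.53) and Hist2h3c2 (-0.46). Of these only Hist1h1e, with 13.5% of its windows elsewhere, kept the sign on exon sums, at -0.27, whereas Hist1h2ao stood at 2.93 and Hist2h3c2 at 3.01. Hist2h2aa1 was also of opposite sign, at -0.35 and 0.91. The exon sums of Hist2h3c2 (0.568 and 3.85) and of Hist2h2aa1 (1.47 and 2.32) were under 10 at both stages. Their exon ratios thus rest on values near 0. By gene value the genes near 0 (Hist1h2af at 0.11, Hist1h3i at 0.03 and Hist2h3b at 0.05) lay below the median of all genes. Hist1h3i was at -0.01 with the 100 highest genes left out of the totals. On exon sums Hist1h2af, Hist1h3i and Hist2h3b stood at 2.04, 0.22 and 0.78, where the median of all genes was 0.31. The exon sums of Hist2h3b were under 10, at 4.74 and 6.85.

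**Figure D4:**
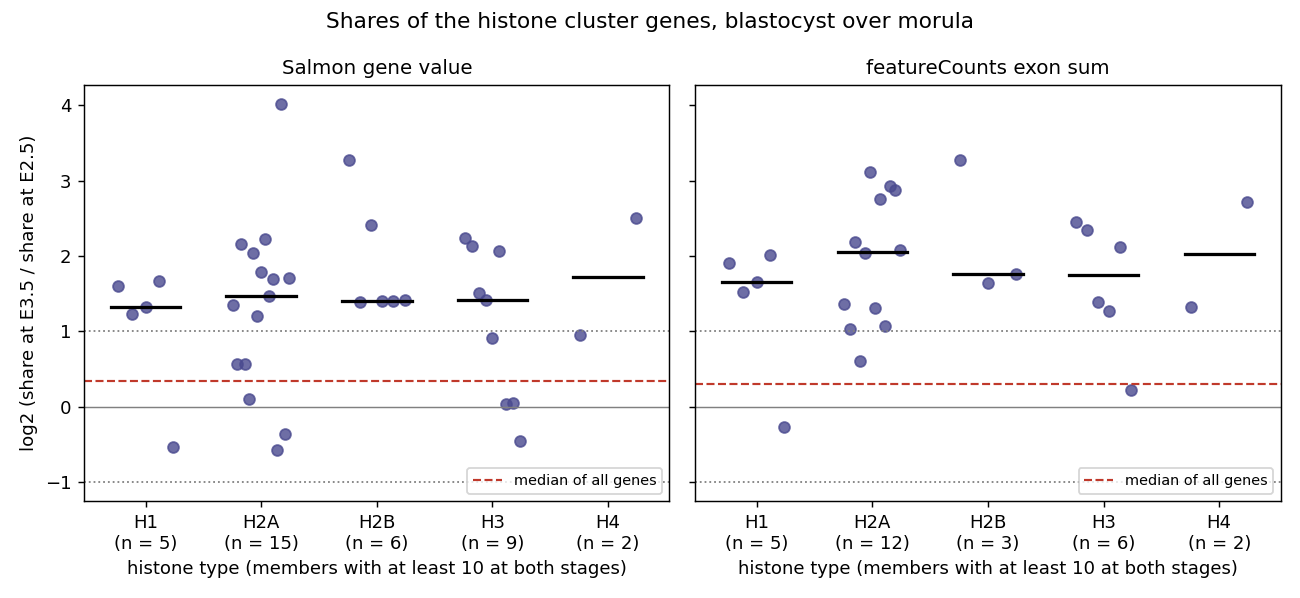
Log2 ratio of the share of the table total at E3.5 over that at E2.5 for members with at least 10 normalized counts at both stages, by histone type, from gene values (left, 37 members) and exon sums (right, 28 members), with type medians as bars, the median of all genes as a dashed line and ratios of 1 and -1 dotted. The medians of all 5 types lie above the all-gene median of 0.34 on the left and 0.31 on the right.

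The order of the members among themselves was much the same at both stages: over 68 members the exon sums per kb had a Spearman correlation of 0.89 between E2.5 and E3.5, given as a description, since the members share sequence and the embryos of each stage a table.

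Along chromosome 13 the Hist1 members fell into 5 groups separated by more than 100000 bases. The first (chr13:21715713-21837530) held 18 members, the second (chr13:22035122-22043658) 5 and the third (chr13:23531044-23764412) 29. The third group, with Hist1h1e, Hist1h4d and Hist1h2ae, held 74.2% of the members' exon sum at E2.5 and 59.3% at E3.5. The first, with Hist1h1b and Hist1h2ao, held 20.3% and 28.4%, and the second, with Hist1h4i and Hist1h2ag, held 3.08% and 7.97%. All 5 members of the second group had a log2 ratio of shares above 1 (1.2 to 2.504), and the group's summed exon share had a ratio of 2.65, against 1.76 for the first and 0.96 for the third. The fourth group was the testis-type pair Hist1h2aa and Hist1h2ba, the only group of genes with a lower summed share at E3.5 on both measures (-1.25 by gene value and -2.17 by exon sum). The fifth was the pseudogene Hist1h2al.

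In the Hist2 cluster (chr3:96219916-96270192) Hist2h2ac was the highest member whose 2 values were close, with 59.5 and 224 by gene value and 56.3 and 200 by exon sum. Hist2h2bb had 11.8 and 36.1 with no window elsewhere. Hist2h2be, also with no window elsewhere, had 6.82 and 30.2 by gene value and 0.339 and 23.0 by exon sum. Hist2h2aa1 had 74.5 and 67.2 by gene value and 1.47 and 2.32 by exon sum, with 95.8% of its windows in Hist2h2aa2. Hist2h3b (10.9 and 13.1) and Hist2h3c2 (25.1 and 21.1) were the H3 genes of the cluster. Hist2h4 stayed under 10 at both stages.

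Hist3h2a on chromosome 11 had a gene value of 9.11 at E2.5 and 102 at E3.5, with exon sums of 8.21 and 89.7 and 2.80% of its windows elsewhere. Its share was larger at E3.5 by 3.28 on the log2 scale. Its exon lies within the annotated span of Trim17 on the same strand, so reads of the 2 genes cannot be told apart there. Hist4h4 on chromosome 6 had 5.76 and 6.00 by gene value, and differed from most members in that its 2 stages were close.

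Only 5 members, all H2B genes of Hist1, had an intron in the exon and intron table. In Hist1h2bc the value of the second exon came close to that of the first at E3.5 and not at E2.5. Its first exon (chr13:23684199-23684621, the form that is spliced) had 78.8 normalized counts per kb at E2.5 and 434 at E3.5. Its second exon, 7554 bases downstream (chr13:23692176-23692480), had 14.2 and 394. Relative to the first exon, the second stood at 18.01% at E2.5 and 90.9% at E3.5, a ratio taken within each table that no scaling between the stages changes. Of the windows of its exons 46.6% occur elsewhere, and their part in the ratio was not tested. The intron had 0.774 and 6.26 per kb.

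The other spliced genes did not share this. In Hist1h2be the second exon in the order of transcription stood at 53.7% of the first at E2.5 and 30.3% at E3.5. The values were low (5.86 normalized counts in the first exon at E3.5), and this exon lies within the annotated span of Hist1h1e. In Hist1h2bp the second exon stood at 2.39% and 2.81% of the first, with 0.0471 and 0.0779 normalized counts. Hist1h2bq and Hist1h2br were under 5 normalized counts in every exon at both stages.

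**Figure D5:**
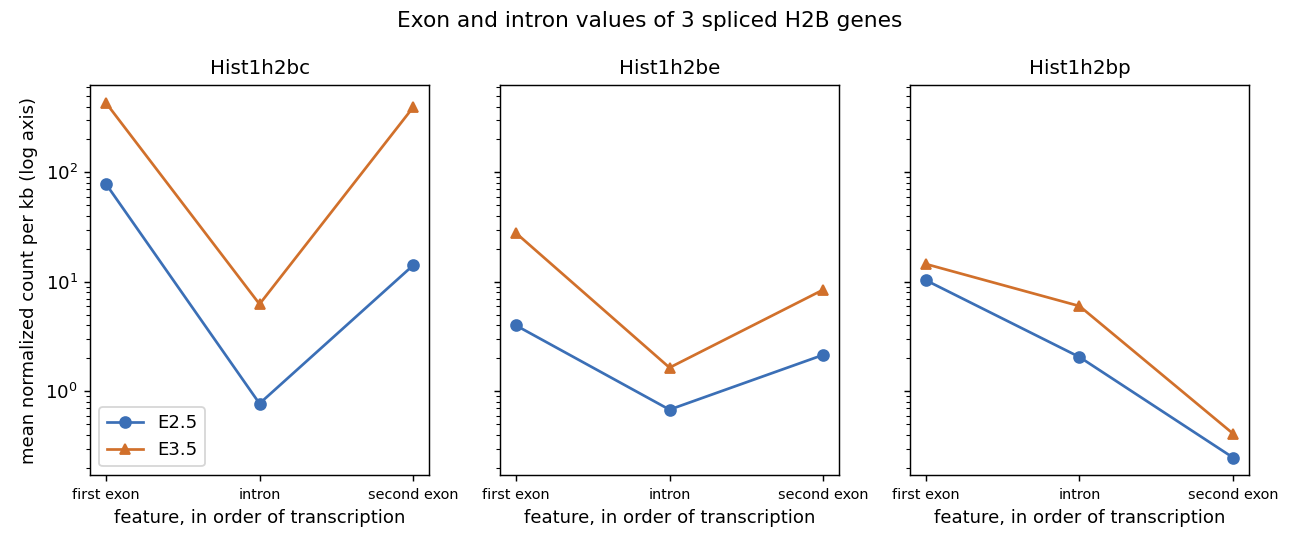
Mean normalized count per kb (log axis) of the first exon, the intron and the second exon, in the order of transcription, of Hist1h2bc, Hist1h2be and Hist1h2bp at E2.5 (circles) and E3.5 (triangles). In Hist1h2bc the second exon is at 14.2 against 78.8 in the first at E2.5, and at 394 against 434 at E3.5. At E2.5 this second exon had 4.33 normalized counts before division by length.

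The libraries did not keep the strand, and 23 members have exons that overlap another annotated gene. Of the 19 H2A genes, 18 overlap a gene annotated as a miRNA on the opposite strand, which no member of another type does, and reads from such genes cannot be told apart from those of the member.

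Genes listed for the making and removal of histone mRNA were present at both stages. All 14 of those listed reached 10 normalized counts at both, and 5 of the 14 had a larger share at E3.5. Of all 11774 genes with at least 10 at both stages, 60.4% had a larger share at E3.5. Slbp, which binds the stem-loop, had 3534 normalized counts at E2.5 and 4422 at E3.5, a log2 ratio of shares of 0.12. Lsm10, a subunit of the U7 particle, had 122 and 961 (2.77), and its partner Lsm11 had 197 and 364 (0.68). Npat, the coactivator of histone gene transcription in S phase, had 1059 and 967 (-0.34). Casp8ap2, which is found with it at histone loci, had 1963 and 1991 (-0.18), and the zinc finger gene Zfp473, which acts in processing at the U7 site, had 109 and 119 (-0.08).

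Of the genes of 3′ end processing and decay, most had log2 ratios of shares within 1 of 0. Cpsf3, the nuclease that cuts histone pre-mRNA, had a ratio of -0.21, Cpsf2 of 0.51, Sympk, their scaffold, of 0.38 and Cstf2 of -0.26. The cap-binding genes Ncbp1 and Ncbp2 had ratios of -0.65 and -0.68. Eri1, an exonuclease that trims and degrades the stem-loop, had 1775 and 1286 normalized counts and a ratio of -0.67. Zc3h8, also on the list but not placed here in 3′ end processing or decay, had its smallest ratio, at -2.03.

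The replacement histones were far more abundant than most cluster members on this poly(A)-primed scale. The 12 genes summed to 4219 ppm at E2.5 and 4231 ppm at E3.5, and 5 of them had a larger share at E3.5. The same held for 60.4% of all genes with at least 10 at both stages, a minimum that some of the 12 did not reach. H2afz, which encodes H2A.Z, had 24452 and 56033 normalized counts, or 22874 and 52416 per kb of longest annotated transcript. H3f3a and H3f3b, which both encode H3.3, had 9149 and 12109 per kb in the morulae and 6222 and 8559 in the blastocysts, where the highest H3 cluster gene had 93.0 per kb (Hist1h3i) and 241 per kb (Hist1h3c).

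The replacement genes differed from each other in direction between the stages. H2afy, which encodes macroH2A, had 200 and 5801 normalized counts, a log2 ratio of shares of 4.66, and H2afy2 had 2.52 and 34.3. H1foo, the linker histone of the oocyte, had 56.0 and 1.26 (-5.68), whereas H1f0 had 370 and 531 (0.32) and H1fx was under 10 at both stages. Cenpa, the histone H3 variant of centromeres, had 9169 and 6635 (-0.67), H2afv 4478 and 2554 (-1.01), H2afx 2813 and 3040 (-0.09) and H2afj 1410 and 1022 (-0.67). H2afx, whose transcript holds the stem-loop letters as the cluster genes do, thus had a share that differed little between the stages.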

How the data were processed

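Single embryos were sequenced by Smart-seq2 from polyadenylated RNA without strand. The authors aligned reads to RefSeq transcripts of mm10 with Salmon 0.7.2, summed them to genes, and normalized them with DESeq2 1.18.1. A second table holds reads on exons and introns, aligned with STAR and counted with featureCounts (versions not given in the sources used here). From both, only the deposited mean normalized count over all embryos of a stage (a signal per gene or exon) was used. The other deposited columns hold the authors' comparisons between genotypes (fold changes and p-values) and were not used. The 4 in vitro libraries were not used. Columns of per-sample values: 0.

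The planned genotype test was therefore not made. Levels were divided by the table total (in ppm, parts per 1000000) and by length (longest GENCODE vM21 transcript, or summed RefSeq exons). As Salmon used RefSeq transcripts, the GENCODE length can differ from that of the transcript the reads were assigned to. Where exons of a gene overlapped, the longest was kept, and those overlapping it were left out of both the exon sum and the length. Scripts used Python 3.11.15, numpy 2.4.6 and pandas 2.3.3, and the window search was tested on simulated data. Members had a minimum level of 10, and 80-base windows, a 300-base span after the stop codon and a 50-base span before the transcript end were searched.

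Named were, per type, the 3 highest members per kb at each stage, the Hist2, Hist3 and Hist4 members that reached 10, the 3 largest and 3 smallest stage ratios and gene-to-exon ratios, and both companion lists. Other genes (Hist1h1c, Hist1h1d, Hist1h1t, Hist1h2aa, Hist1h2ab, Hist1h2af, Hist1h2ba, Hist2h2ab, Hist2h4, Hist4h4, and the spliced and paired genes) were named after their values were seen. Members and lists were chosen with earlier results of these data known. The alternatives were the minimum, the denominator, the length and the counter.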

Additional observations from a re-analysis of the deposited data

How the results depend on the processing

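The results are descriptions, and an alternative was taken to move a value where it changed by more than 1.5 times. The number of members at or above the minimum was 63 at E2.5 with a minimum of 1, and 9 at E2.5 and 21 at E3.5 with a minimum of 100. The members' summed share at E2.5 and E3.5 was 5143 and 4601 ppm of the sum per kb, 106 and 257 ppm on exon sums, and 238 and 642 ppm without Hist1h2ao. With a minimum of 100 at both stages 9 members were left, of which 5 had a log2 ratio of shares of at least 1; the smaller number follows from the fewer members. The median log2 ratio lay between 1.07 (after the median of all genes was subtracted) and 1.83 (exon sums). All other alternatives moved no count or share by more than 1.5 times. This includes the comparison of pairs by gene value, which was added after the data were seen. The alternative length was compared only on the median level per kb, and single members moved more. At E2.5 Hist1h1d had 13.5 per kb of longest annotated transcript and 129 per kb of RefSeq exon, and Hist1h2al 171 and 19.4.

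No paired analysis was possible because the tables used here hold 1 pooled value per gene and stage and no value per embryo. For the same reason the genotype test, its pseudocounts and the fits without each embryo were not run. What limits the values is the single pooled mean per stage, with no spread, depth or genotype behind it, and, for 28 of 68 members, sequence of which 50% or more occurs elsewhere.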
